A study of Mus musculus with 6 samples.

Results

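The 41 genes described here code for coagulation, kinin, fibrinolysis and complement proteins. Most of these proteins are released into the blood by the liver, but Cd59a codes for a membrane protein. The genes were chosen by symbol from a list of these factors, without serpins and without C1q. Of the 41 listed, 41 were found among the 16123 genes of the deposited table. All 41 had a mean value of at least 1 normalized read, as did 14106 genes in all, and 40 had a mean of at least 100, as did 7063 genes in all. The gene below 100 was F8.

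RNAseq was performed on polyA RNA of liver from male mice of 2 months, with 3 libraries of wild type (WT) mice and 3 of Txndc5-deficient (KO) mice, each library made from a pool of RNA from 3 mice. The labels give the strain of WT mice as C57BL/6Rj and that of KO mice as C57BL/6JRj-Txndc5<em2Mdnp>/Ciba. Mice of both groups were born of heterozygous crosses, ate a purified chow diet based on AIN-93 for 4 weeks and were fasted for 16 h. KO mice lack exon 3 of Txndc5 in all tissues through a CRISPR deletion and descend from 1 founder male. A change of the liver and a change elsewhere in the body therefore cannot be told apart. Nor can an effect of the deletion and that of another variant inherited together with it.

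Clotting runs through a cascade of proteases, most of them made by hepatocytes as inactive precursors, which ends in thrombin cutting fibrinogen into fibrin, and plasmin dissolves the fibrin again. Complement is started through antibodies, through sugars bound by lectins or spontaneously, meets at C3 and ends in a pore built from C5b to C9. TXNDC5 is a protein disulfide isomerase of the endoplasmic reticulum, the compartment in which these secreted proteins fold and form their disulfide bonds.

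The files hold 1 value per genotype for each gene, the authors' value in normalized reads, which is reads divided by a size factor that evens out library depth. The ratio of the KO and WT values equals the authors' shrunken ratio, so that the values of a weakly expressed gene lie closer together than the means of its libraries. No spread between pools could be read for 40 members. Their ratios are descriptions with no test, log2 ratios are those of KO + 1 over WT + 1, and a value 1.5-fold apart was taken as the limit to be counted.

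Txndc5, the targeted gene, was valued at 2697 normalized reads in WT but at 90.8 in KO, 29.7-fold lower. The libraries held between 44040160 and 46050030 clean reads, of which 91.63% to 93.66% mapped and 62.19% to 65.69% mapped uniquely. Of 6 hepatocyte marker genes none lay beyond 1.5-fold, and the median log2 ratio was -0.18, with Alb (albumin) at 0.00 and Apob at -0.52. Over all genes with a mean of at least 1, 1.45% were higher and 4.93% lower in KO beyond that limit. All 6 red cell genes had a higher value in KO, 3 of them beyond 1.5-fold. The summed value of the red cell genes was 118830 in WT and 180430 in KO. The part of this blood signal in the values of the members was not tested. Neutrophil genes summed to 16.5 in WT and 18.0 in KO, lymphocyte genes to 75.9 and 62.5, platelet genes to 90.9 and 105, and cholangiocyte genes to 278 and 306. Stellate cell genes summed to 2160 and 1918, but 3 of 6 were above 0 with a median log2 ratio of 0.01. They ranged from Dcn at -0.50 to Col1a1 at 0.75, beyond 1.5-fold. Dcn, at 1296 in WT and 915 in KO, was the largest part of both sums.

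To show what sequence surrounds the start of these genes, the 250 bases before the RefSeq start were searched on both strands for 5 motifs of liver transcription. A promoter was listed for 33 of the 41 genes in the RefSeq promoter table of GRCm38.p6, and not for Plg, Kng1, Proc, C2, C4b, Cfb, Cfi and Masp1. HNF4 is a factor that keeps hepatocyte genes on, homeodomain factors also bind promoters of liver genes, C/EBP factors act in liver and in the acute phase, and STAT3 carries the signal of interleukin-6. The homeodomain motif GTTAAT was found in 11 of 33 members (33.3%), against 7.49% of 27025 genes with a promoter listed and 5.37% of the 11179 among them with a mean of at least 1. The C/EBP motif TTGCNNAA was found in 9 of 33 members (27.3%), against 10.8% of all genes and 9.54% of those with a mean of at least 1. The element CTGGGAA, bound by STAT3, was found in 5 of 33 members (15.2%), against 10.4% of all genes and 11.4% of those with a mean of at least 1. The HNF4 motif CAAAGTC was found in 1 member, Vtn (3.03%), against 4.33% of all genes and 4.30% of those with a mean of at least 1. The TATA box TATAAA was found in 3, Hc, Klkb1 and Vtn (9.09%), against 14.3% of all genes and 8.52% of those with a mean of at least 1, so that the members lay below the first share and above the second. These shares are descriptions with no test, and a match is not shown to be a bound site.

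The 3 fibrinogen genes, which lie side by side on chromosome 3, hold matches of different kinds. The neighbours C8a and C8b each hold a homeodomain match and no other. F9 is shown because both of its matches lie close to the start. The windows, of GRCm38, are chr3:83025903-83026075 for Fga (plus strand), chr3:83049864-83050113 for Fgb (minus strand), chr3:83007474-83007723 for Fgg (plus strand), chr4:104876399-104876648 for C8a (minus strand), chr4:104766067-104766316 for C8b (plus strand) and chrX:59999214-59999463 for F9 (plus strand). Letters are given from 5′ to 3′ on the strand of the gene, with matches in capitals. For Fga only the 173 bases ahead of the first exon annotated by GENCODE are given, and its homeodomain match, 43 bases before the RefSeq start, lies beyond them.
Fga: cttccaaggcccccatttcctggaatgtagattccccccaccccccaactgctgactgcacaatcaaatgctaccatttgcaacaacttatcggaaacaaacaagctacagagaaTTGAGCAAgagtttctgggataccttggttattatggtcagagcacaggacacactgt
Fgb: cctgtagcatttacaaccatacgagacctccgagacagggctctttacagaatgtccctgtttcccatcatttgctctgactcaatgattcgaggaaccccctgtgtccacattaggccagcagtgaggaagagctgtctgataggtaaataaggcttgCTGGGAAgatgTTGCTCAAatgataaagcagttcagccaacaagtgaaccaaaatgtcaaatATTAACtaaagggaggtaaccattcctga
Fgg: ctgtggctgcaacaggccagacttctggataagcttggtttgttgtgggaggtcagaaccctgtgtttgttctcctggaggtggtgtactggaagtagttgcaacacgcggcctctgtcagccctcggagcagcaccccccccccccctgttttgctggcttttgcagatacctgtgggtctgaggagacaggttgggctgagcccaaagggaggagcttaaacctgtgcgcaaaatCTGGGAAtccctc
C8a: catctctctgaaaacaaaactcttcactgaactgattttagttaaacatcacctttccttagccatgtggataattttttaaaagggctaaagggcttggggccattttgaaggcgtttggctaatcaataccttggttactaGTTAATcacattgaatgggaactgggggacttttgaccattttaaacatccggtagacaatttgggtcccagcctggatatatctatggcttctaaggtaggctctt
C8b: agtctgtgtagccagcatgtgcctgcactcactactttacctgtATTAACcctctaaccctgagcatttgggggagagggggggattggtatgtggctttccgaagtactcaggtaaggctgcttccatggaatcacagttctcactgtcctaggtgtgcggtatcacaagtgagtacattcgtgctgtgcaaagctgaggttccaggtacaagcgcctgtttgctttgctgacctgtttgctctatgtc
F9: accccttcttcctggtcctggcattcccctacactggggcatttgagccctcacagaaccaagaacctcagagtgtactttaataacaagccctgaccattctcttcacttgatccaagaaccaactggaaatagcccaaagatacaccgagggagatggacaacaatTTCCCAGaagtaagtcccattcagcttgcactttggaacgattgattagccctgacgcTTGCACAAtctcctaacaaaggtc
TTGAGCAA in Fga, TTGCTCAA in Fgb and TTGCACAA in F9 are C/EBP matches, read on one strand or the other. ATTAAC in Fgb and C8b and GTTAAT in C8a are homeodomain matches. CTGGGAA in Fgb and Fgg and TTCCCAG in F9 are matches of the STAT3 element. Fgb was the only one of the 33 promoters with matches of all 3 of these motifs.

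**Figure D1:**
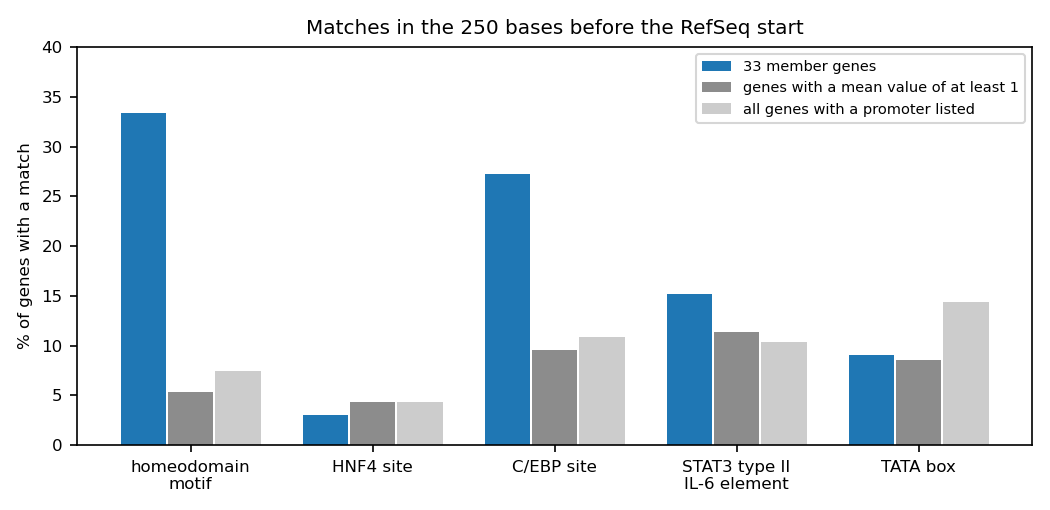
Percent of genes (vertical axis) with at least 1 match of each motif in the 250 bases before the RefSeq start, for 33 members (blue), genes whose mean value is 1 or more (dark grey) and all genes with a promoter listed (light grey). The homeodomain motif stands at 33.3% of the members and 7.49% of all genes, and the C/EBP motif at 27.3% and 10.8%.

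Together the members took 4.08% of all normalized reads in WT and 4.13% in KO. C3 alone, the protein at which all complement pathways meet, took 1.10% in WT and 1.20% in KO and was number 11 of all genes by mean value. Levels of different genes are compared here per kilobase of the union of annotated exons. On this scale Vtn (vitronectin, an adhesion protein of plasma) was highest, at 47606 normalized reads per kilobase in WT and 41737 in KO, followed by C3 at 42383 and 43205. Fga, Fgg, Hrg, Plg, Kng1, Fgb, F12 and F2 completed the 10 highest members, and the same 10 were highest when the length of the longest transcript was used. F8 was lowest at 7.89 per kilobase in WT and 5.69 in KO, below Masp1 at 71.0 and 87.2, Pros1 at 111 in both and F11 at 151 and 134. The order of Masp1, Pros1 and F11 depended on the length used. By the longest transcript Masp1 had a mean of 146, above F11 at 142 and Pros1 at 138. The complement cascade thus spanned the range from C3 to Masp1, a starting protease of the lectin pathway, and the clotting cascade the range from fibrinogen to F8, the cofactor of factor IX.

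**Figure D2:**
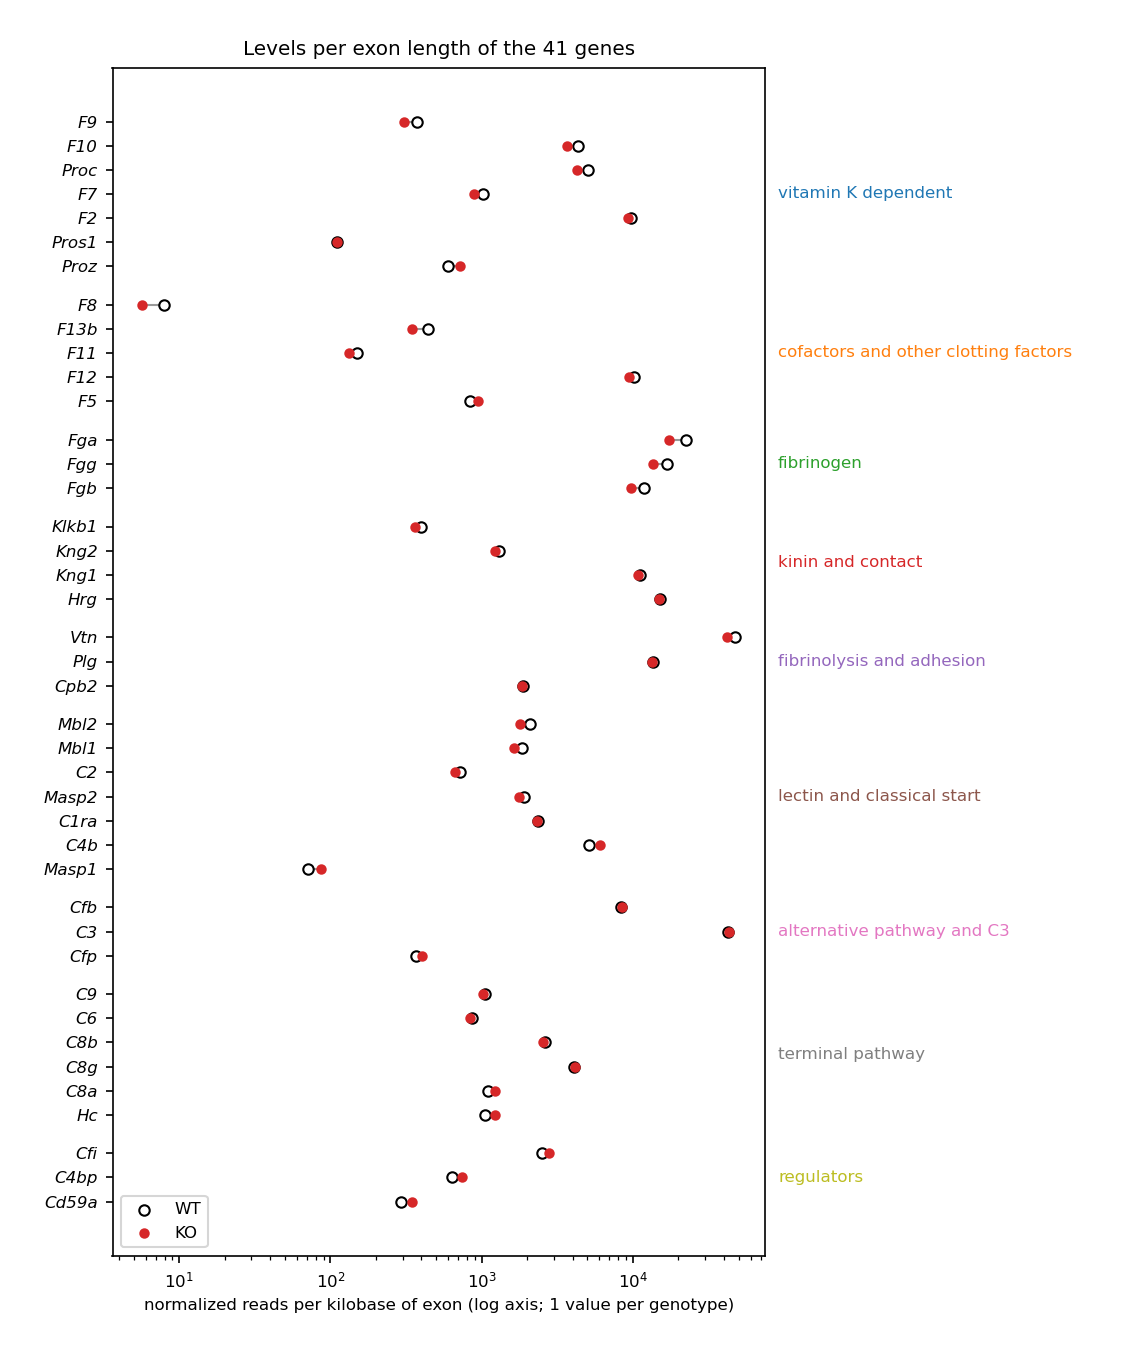
Normalized reads per kilobase of exon (horizontal log axis) in WT (open) and KO (red) for the 41 genes grouped by role, with 1 value per genotype and no error. Vtn lies at 47606 in WT and 41737 in KO, and F8 at 7.89 and 5.69.

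In the comparison of KO with WT no member lay beyond 1.5-fold in either direction. Over the 14106 genes with a mean of at least 1, 1.45% were higher in KO beyond 1.5-fold and 4.93% were lower, and over the 7063 genes with a mean of at least 100, 1.18% were higher and 2.72% lower. With a narrower limit, 0.32 on the log2 scale, 0 of 41 members were higher, where 8.05% of genes were. At that limit 3 of 41 were lower (F8, Fga and F13b), where 15.7% of genes were. Both shares are over genes with a mean of at least 1 and were not counted for a mean of at least 100. Ratios spread less there, with a 95th percentile of the absolute log2 ratio of 0.53 against 0.64. The log2 ratios of the members lay between -0.46 and 0.30 with a median of -0.05, the same as the median of all genes with a mean of at least 1. The ratio was below 0 in 27 members and above 0 in 14, and it was below 0 in 57.5% of all genes.

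The clotting and complement genes differed in their counts. Of the 22 coagulation, kinin and fibrinolysis genes, 19 had a ratio below 0, with a median log2 ratio of -0.16, and their summed share of all normalized reads was 2.39% in WT and 2.27% in KO. Of the 19 complement genes, 8 had a ratio below 0, with a median of 0.03, and their share was 1.68% in WT and 1.86% in KO. After centring on the median of all genes 16 of 22 and 5 of 19 were below 0, and after scaling each genotype to the same sum 14 of 22 and 3 of 19. This difference between the groups was not tested, since neighbouring genes and genes of the same cells do not vary independently and no library values were at hand.

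**Figure D3:**
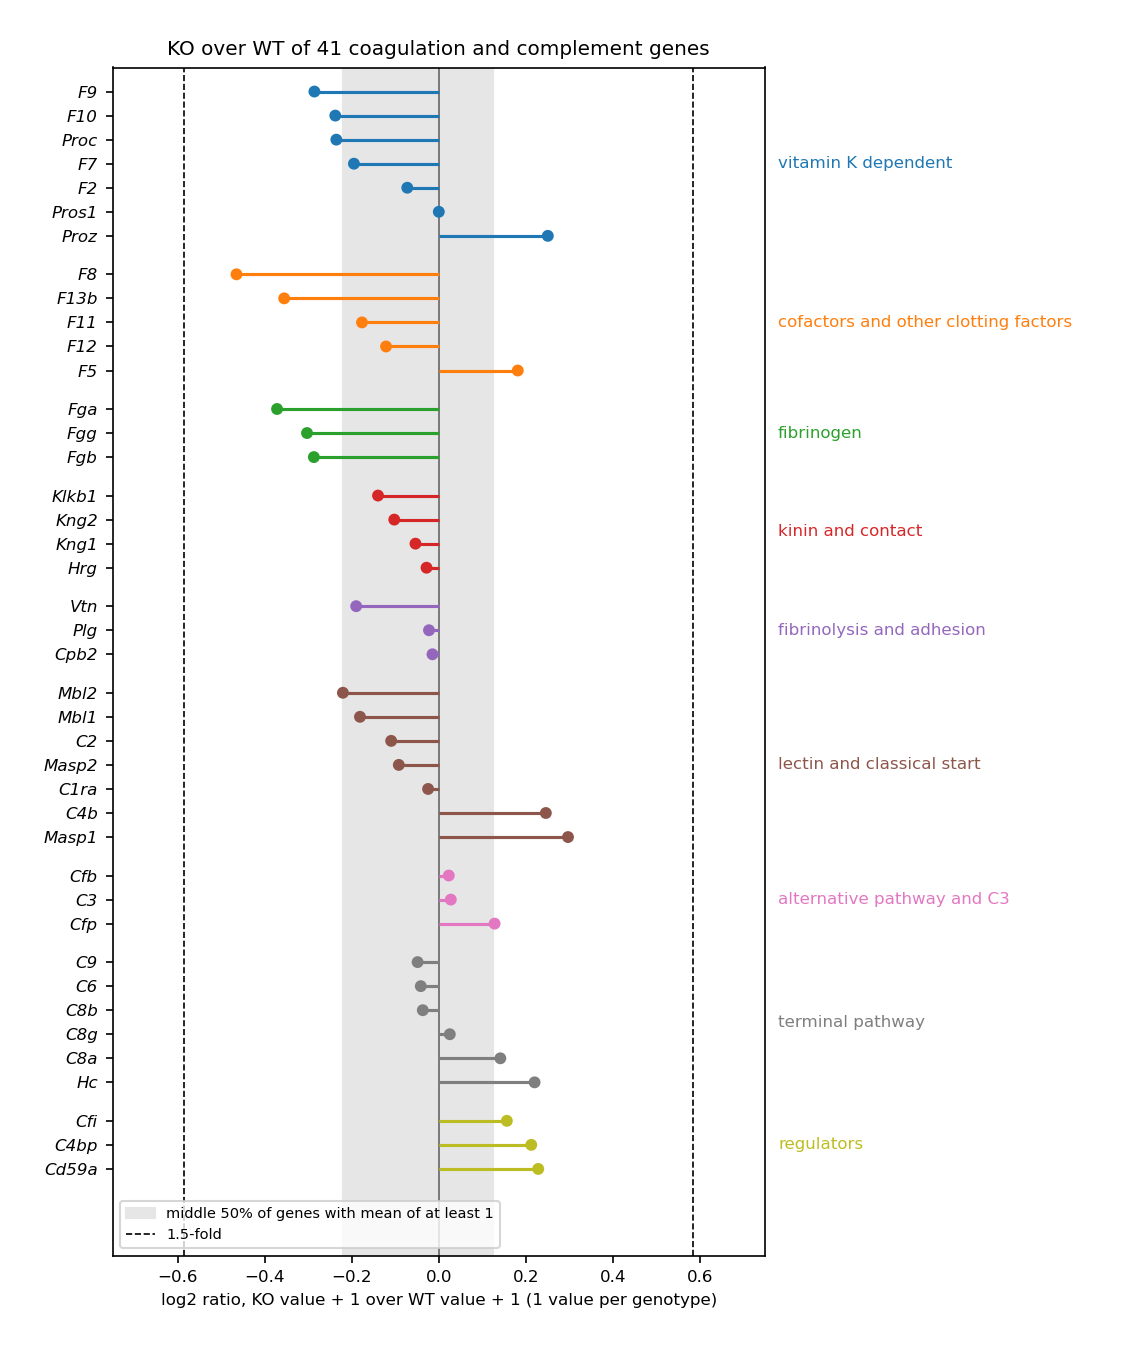
Log2 ratio of KO over WT (horizontal axis) for the 41 genes grouped by role, with the middle 50% of all genes with a mean of at least 1 shaded and 1.5-fold marked by dashed lines, and 1 value per genotype and no error. All 41 points lie between the dashed lines, the 3 fibrinogen genes from -0.37 to -0.29 and the 3 regulators from 0.16 to 0.23.

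The 3 fibrinogen genes code for the chains of the clot-forming protein. Fga stood at 67728 in WT and 52344 in KO (log2 ratio -0.37), Fgb 44943 and 36833 (-0.29), and Fgg 34945 and 28328 (-0.30). All 3 stood lower in KO under each of the scalings tried, with a median log2 ratio between -0.21 and -0.30, and their sum was 20.4% lower as deposited. The genes lie on chromosome 3 of GRCm38 in the order Fgg (83007724 to 83015049), Fga (83026076 to 83033627) and Fgb (83040141 to 83049863), with Fgb on the opposite strand and no other coding gene between neighbours. In normalized reads, not set per kilobase, Fga over Fgb had a log2 ratio of 0.59 in WT and 0.51 in KO. Fgb over Fgg stood at 0.36 and 0.38, so that these ratios were close in both genotypes. They are not proportions of the chains, since the order of Fga and Fgb depended on the length used. Per kilobase, Fga and Fgb in WT stood at 22501 and 11796 by the union of exons. By the deposited length they stood at 21258 and 26236.

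The 7 vitamin K dependent proteins bind calcium through carboxylated glutamates. Those that drive clotting had the lower value in KO as deposited, but for F2 the sign turned after scaling to the same sum. F2 (prothrombin) stood at 44691 in WT and 42505 in KO (log2 ratio -0.07). Its share of all normalized reads was 0.226% in WT and 0.229% in KO. F7 stood at 1905 and 1664 (-0.19), F9 at 1028 and 843 (-0.29) and F10 at 11788 and 9996 (-0.24). The anticoagulants did not share 1 direction. Proc (protein C) had 12490 in WT and 10609 in KO (-0.24), Pros1 (protein S, its cofactor) 454 in both (0.00), and Proz (protein Z, a cofactor of a factor X inhibitor) 3337 and 3971 (0.25). F7, F10 and Proz are neighbours on the plus strand of chromosome 8, with 1498 bases between F7 and F10 and 4237 between F10 and Proz, and the log2 ratio of F10 lay 0.49 below that of Proz. The genes Ggcx (the carboxylase itself), Vkorc1 and Vkorc1l1, which recycle vitamin K, and Lman1, Mcfd2 and Furin, of cargo transport and cleavage, had log2 ratios between -0.10 and 0.19, with 0 of 6 beyond 1.5-fold.

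Among the other clotting factors F13b, the carrier subunit of the fibrin-linking factor XIII, had 1121 in WT and 876 in KO (log2 ratio -0.36). F11 had 338 and 299 (-0.18) and F12, the factor that starts contact activation, 19995 and 18384 (-0.12). F5, the cofactor of factor X, had the opposite sign, at 6230 in WT and 7066 in KO (0.18). F11 shares a stretch of chromosome 8 with Klkb1 (plasma prekallikrein), 4657 bases away on the same strand, which had 2082 and 1890 (-0.14). A second coding gene annotated on the same strand, Gm45753, covers 43.2% of the exon bases of Klkb1, so that the reads of both may be mixed.

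F8 was the only member weak enough for the reads of single libraries to be recovered from the deposited values. It lies on the minus strand of chromosome X, from 75172715 to 75382615, and is known to be made chiefly by endothelial cells of the liver sinusoids. Pool numbers cannot be matched to these libraries, which are named by their size factor. In WT, the library with size factor 1.22 held 131 reads of F8 (107.0 normalized), that with 0.879 held 63 (71.7) and that with 0.818 held 50 (61.1). In KO, the library with size factor 1.31 held 91 reads (69.3 normalized), that with 1.04 held 37 (35.7) and that with 0.886 held 52 (58.7). The groups overlapped, since the highest KO library stood above the lowest WT library. The means were 79.9 ± 24.0 in WT and 54.6 ± 17.2 in KO (SD, n = 3), and the two-sided exact permutation test gave p = 0.2, where the smallest p for 3 libraries against 3 is 0.1.

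The reads of 3793 weakly expressed genes, with sums between 60 and 600, could be set against each other with limma on log2(normalized reads + 1). F8 had a difference of KO minus WT of -0.55 with an SE of 0.38 and a Benjamini-Hochberg adjusted p of 0.999 by limma. Limma called 0 of 3793 genes (0.0%) at an adjusted p under 0.05, and 61 (1.61%) had an unadjusted p under 0.05. With a term for the largest library of each genotype, 293 (7.72%) had an unadjusted p under 0.05, and 0 were called. The lack of calls does not show that these genes are unchanged. The difference of F8 was -0.28 without the KO library of size factor 1.04 and -0.33 without the WT library of 1.22. The authors' values, at 78.2 in WT and 56.4 in KO (log2 ratio -0.46), lay closer together than the library means. The 7 sinusoidal endothelium genes, which include Stab2 and Clec4g, summed to 2833 in WT and 2706 in KO, with 4 of 7 below 0, a median log2 ratio of -0.04 and none beyond 1.5-fold. Fewer cells of a type and less RNA per cell cannot be told apart in such bulk samples.

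**Figure D4:**
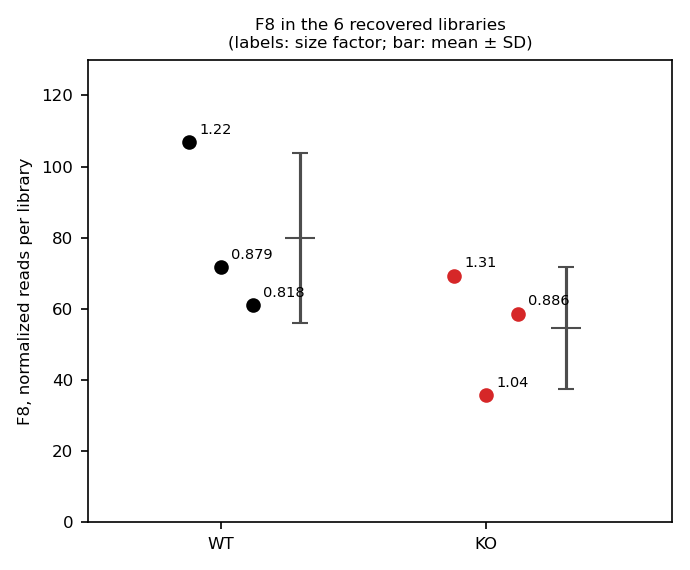
F8 in normalized reads (vertical axis, from 0) in each of the 6 recovered libraries, labelled with the size factor, with the mean ± SD (n = 3) beside each genotype. The WT libraries lie at 61.1 to 107.0 and the KO libraries at 35.7 to 69.3, with an overlap.

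The kinin and contact genes had ratios close to 1. Kng1 (kininogen, the source of bradykinin) had 36264 in WT and 34944 in KO (log2 ratio -0.05), its paralog Kng2 3571 and 3326 (-0.10), and Hrg (histidine-rich glycoprotein) 30362 and 29777 (-0.03). The 3 genes lie together on chromosome 16. Kng1 and Kng2 share 5.80% and 5.69% of their 100-base words. Since Kng1 stood far above Kng2, any exchange of reads would weigh more in the value of Kng2, which was not tested. Of the fibrinolysis genes Plg (plasminogen) had 50406 and 49628 (-0.02) and Cpb2, a carboxypeptidase that protects fibrin from plasmin, 3055 and 3025 (-0.01). Vtn stood lower, at 96639 in WT and 84727 in KO (-0.19).

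Within complement, the proteins that start the cascade held both ends of the range. Masp1 had 698 in WT and 858 in KO, the highest log2 ratio of all members (0.30), and its partner protease Masp2 had 6266 and 5880 (-0.09). The sugar-binding lectins that these proteases attach to, Mbl1 and Mbl2, had 2918 and 2574 (-0.18) and 2280 and 1957 (-0.22). C4b, which both the classical and lectin pathways cleave, had 29000 in WT and 34397 in KO (0.25), C2, its partner in the C3 convertase, 2770 and 2567 (-0.11), and C1ra, a protease of C1, 7063 and 6944 (-0.02).

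Some of these values depend on how reads were shared out. In Masp2, 54.9% of the exon bases lie opposite exons of Tardbp (267 in WT and 201 in KO), and the strand setting of the counting is not given in the sources used here. C4b shares 16.5% of its 100-base words with C4a, which was listed at 67.1 and 76.5, and C1ra shares 34.5% with C1rb. Cfb and C2 lie 85 bases apart on chromosome 17, and the annotated readthrough gene Gm20547 covers 79.5% and 42.8% of their exon bases.

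C3 had 217976 in WT and 222205 in KO (log2 ratio 0.03), and Cfb (factor B, which forms the alternative C3 convertase) 23488 and 23866 (0.02). Cfp (properdin, which stabilizes that convertase and is known from myeloid cells) had 636 and 696 (0.13). The Kupffer cell genes beside it summed to 2865 in WT and 3185 in KO, with 4 of 7 above 0. Of these 7, 1 was higher beyond 1.5-fold, where 1.45% of genes with a mean of at least 1 were. The part of the Kupffer cell genes in the value of Cfp was not tested. These 3 alternative pathway genes had a ratio above 0 as deposited. The other scalings tried could not turn this sign, since centring and scaling to the same sum raise every ratio.

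In the terminal pathway Hc (complement C5) had 6570 in WT and 7654 in KO (log2 ratio 0.22). C8a, C8b and C8g code for the chains of C8, and had 4027 and 4443 (0.14), 6682 and 6514 (-0.04) and 6054 and 6161 (0.03). C8a and C8b are neighbours on opposite strands of chromosome 4, 11130 bases apart. C6 had 3081 and 2994 (-0.04) and C9, which forms the wall of the pore, 2679 and 2590 (-0.05). Of the 6 genes, 3 were above 0 as deposited, 5 after centring and 6 after scaling to the same sum.

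The 3 regulators restrain complement and all stood higher in KO as deposited. Centring and scaling to the same sum both raised every ratio, so neither could turn this sign. Cfi (factor I, the protease that inactivates C3b and C4b) had 5526 in WT and 6159 in KO (log2 ratio 0.16), C4bp (its cofactor for C4b) 4279 and 4959 (0.21) and Cd59a, a membrane protein that blocks the pore, 534 and 626 (0.23). Their sum was 13.6% higher in KO, and no library values were at hand to set against this.

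**Figure D5:**
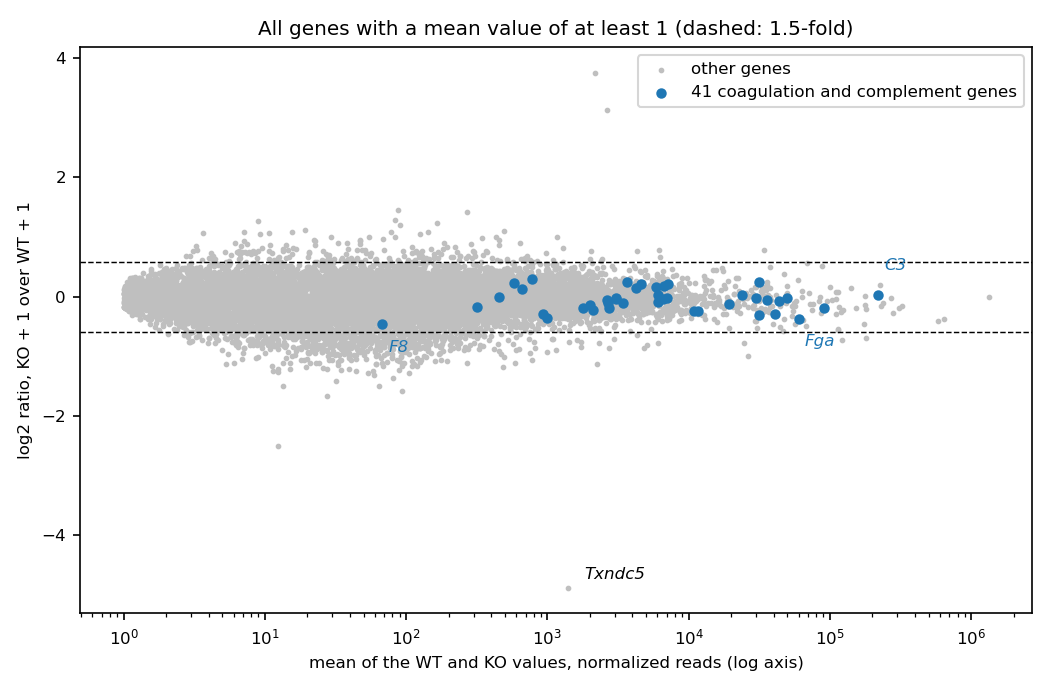
Log2 ratio of KO over WT (vertical axis) against the mean of both values in normalized reads (horizontal log axis) for genes with a mean of at least 1, with the 41 members in blue and 1.5-fold dashed. The members lie between -0.46 and 0.30, all inside the dashed lines, and Txndc5 at -4.88.

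Of 41 further genes of these cascades outside the list, 3 were higher and 2 lower beyond 1.5-fold, with a median log2 ratio of -0.05. Over all genes with a mean of at least 1, 1.45% were higher and 4.93% lower beyond that limit. Of the lower genes, Cfhr2 had 2027 in WT and 1229 in KO (log2 ratio -0.72). Among the higher genes, 2 weak ones are given by library. Cfd, the protease that activates factor B, ranged from 11.3 to 197 in KO and from 4.08 to 52.3 in WT (exact permutation p = 0.5, n = 3). Thbd (thrombomodulin, on which thrombin activates protein C) had 37.3 to 50.3 in KO and 17.1 to 35.1 in WT, with no overlap and the smallest p that the exact permutation test allows, 0.1 (n = 3). Only listed genes with a sum of at least 60 were read by library, and overlap was not examined in weaker ones. Within that limit the groups overlapped in every other listed gene read, markers included. These p-values were not adjusted for the number of genes read. The separation of Thbd, picked from many genes, therefore cannot be told from chance, and no conclusion is drawn from it.

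Of 10 factors and signalling genes that act on liver and acute phase genes, 1 was higher in KO beyond 1.5-fold and 0 lower. The shares over all genes with a mean of at least 1 were 1.45% and 4.93%. Il6ra, the receptor for interleukin-6, had 349 in WT and 533 in KO (log2 ratio 0.61), and Il6st, its signalling partner, 870 and 986 (0.18). Stat3 had 1324 and 1504 (0.18), Hnf4a 12716 and 14949 (0.23) and Cebpa 12895 and 11888 (-0.12). None of these could be read by library.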

How the data were processed

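Liver RNA of 3 WT and 3 KO pools was sequenced by a commercial service. The submitters' notes name HISAT2, StringTie, Cufflinks, GATK, Bowtie2, RSEM and build mm10, without roles or versions. The authors deposited an expression signal for each gene and genotype, in reads divided by size factors, and percent values and counts of reads for each library, with read totals also given by the authors as rounded values, treated here as a score and not tested. The same table holds columns of the authors' log2 ratios, p-values and adjusted values. None entered a calculation, but the ratio of the KO and WT values is the same as the authors' log2 ratio, so that the ratios given here are not independent of it. Other columns of per-sample values left out numbered 0.

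The design foresaw read counts per library or 1 value per genotype, and the latter branch applied. Members and lists were chosen with earlier results of these data known. Log2 ratios used a pseudocount of 1 and genes with a mean of at least 1.

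Whole reads were recovered for sums up to 600 by enumeration, within 2.5 times the rounding error of values given to 15 digits, for 8002 of 8081 genes with sums up to 400 (99.0%) and 491 of 979 above (50.2%). The direction of the ratio of the values set the genotype of each recovered library and, for genes beyond 0.5 on the log2 scale, chose between sets of reads. Size factors of the KO libraries came out as 1.31, 1.04 and 0.886 and of the WT libraries as 1.22, 0.879 and 0.818. Recovery was tested on reads with known answers, where the 817 genes resolved of 823 with sums up to 400, and the 80 of 93 with sums near that of F8, were all right. The fit used limma 3.58.1 in R 4.3.3, and exact tests SciPy 1.17.1 under Python 3.11.15. P-values measure the spread between pools. Full values were given for the members by role, for those with library values, and for paralogs and neighbours among them, and of other lists for genes beyond 1.5-fold, with Il6st, Stat3, Hnf4a and Cebpa added after their values were seen. Some genes of these lists are not reported here. Lengths and positions came from GENCODE M21 on GRCm38, and promoters from RefSeq.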

Additional observations from a re-analysis of the deposited data

How the results depend on the processing

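The count of 0 members higher or lower beyond 1.5-fold was the same with a pseudocount of 0.1, after centring, without a filter, with a mean of at least 100, after scaling to the same sum (added after seeing the data) and, for higher members, with a limit of 0.32 on the log2 scale. With that limit 3 members were lower, and with a limit of 2-fold 0. The median log2 ratio of the members was -0.05 as deposited, 0.00 after centring and 0.04 after scaling to the same sum, so that its sign turned with the scaling. Members with a ratio below 0 numbered 27, and 17 after scaling to the same sum. For complement genes the number was 8, then 5 after centring and 3 after scaling. For F8 the limma difference of KO minus WT lay between -0.75 and -0.28 when 1 library was left out, with adjusted p of 0.977 or above, and a term for the largest library of each genotype gave an adjusted p of 0.679. Genes called by limma numbered between 0 and 1 when 1 library was left out (1 without the WT library of size factor 1.22), and 0 under the other alternatives. Leaving out a library leaves 2 in its group. The causes were not tested. The 10 highest members per kilobase were the same with the longest transcript and with the length in the deposited table (added after seeing the data). No paired analysis was possible because the recovered libraries carry no pool number, the table holds 1 value per genotype, and the genotypes share a single pool number. Depth limits F8, with 37 to 131 reads per library, so that a counting error adds to the spread between pools. For the other members the limit is not depth but the lack of values per library.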
